A study of Mus musculus with 19 samples.

Results

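The mRNA levels of 9 enzymes of the pyruvate dehydrogenase (PDH) complex and the tricarboxylic acid (TCA) cycle were followed in epididymal white adipose tissue (eWAT) of mice on diets that differed in Mg2+ and fat. The genes were taken by symbol (Pdha1, Dlat, Cs, Idh2, Idh3a, Ogdh, Suclg1, Fh1 and Mdh2) from the table of all genes, and all 9 were found among the 24237 genes used. Wild-type C57Bl6/J mice were fed for 17 weeks, and 1 RNA library was sequenced per mouse. NormMg-LFD mice (n = 4) received a normal magnesium low fat diet, LowMg-LFD mice (n = 5) a low magnesium low fat diet (their table columns are named for low Mg2+ without the fat level, and were matched because the LowMg-HFD mice have columns of their own), NormMg-HFD mice (n = 5) a normal magnesium high fat diet and LowMg-HFD mice (n = 5) a low magnesium high fat diet. The labels name no transgene and no treatment other than the diets, though insulin and glucose tolerance tests were made on mice of the study before tissue was taken. The libraries hold the whole fat pad, with its adipocytes, macrophages and vessels. A lower level in such tissue can mean fewer cells of a type or less RNA per cell, and the 2 cannot be told apart here.

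Pyruvate made by glycolysis enters mitochondria and is converted to acetyl-CoA by the PDH complex, which PDH kinases switch off by phosphorylating its E1 subunit. Citrate synthase joins acetyl-CoA to oxaloacetate, and the TCA cycle then either burns the citrate or lets it leave for the cytosol, where ATP citrate lyase cleaves it to feed fatty acid synthesis. White adipocytes use that export route to make lipid from glucose, and Mg2+ is a cofactor of PDH phosphatase and of isocitrate dehydrogenases.

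The libraries were even in depth, with 12986441 to 13027028 reads per mouse, of which 86.12% to 90.41% were mapped. Defining adipocyte genes were high in every mouse (Adipoq, 1072 to 2569 FPKM), whereas the brown fat gene Ucp1 was between 0 and 1.59 FPKM and the muscle genes Ckm and Myh4 were at most 0.56 and 0.11 FPKM. Other genes of these lists were higher, with Cox8b at 10.3 to 44.4 FPKM and Cidea at up to 14.7 FPKM in the brown or beige list, and Acta1 at 2.93 to 24.9 FPKM and Pvalb at up to 11.1 FPKM in the muscle list. Single libraries stood apart for RNA of other tissues. The summed level of 9 exocrine pancreas genes was 1410 FPKM in NormMg-LFD replicate 3, against at most 3.79 FPKM in any other mouse. The study's methods name pancreatic tissue in a LowMg-HFD sample, but in the 5 LowMg-HFD libraries this sum was at most 2.74 FPKM. The epithelial gene Krt8 was at 35.6 to 44.7 FPKM in replicate 4 of NormMg-LFD, LowMg-LFD and LowMg-HFD, against 0.76 to 16.1 FPKM in the other 16 mice, and the testis gene Tnp1 reached 528 FPKM in LowMg-HFD replicate 4 and 119 FPKM in NormMg-LFD replicate 5. Krt8 and Tnp1 were chosen after their values were seen. Results are therefore also given over 15 mice, without the 4 libraries named for pancreas genes or Krt8, so that NormMg-LFD replicate 5 stays among them.

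Levels are given as FPKM, a value scaled for transcript length, so that genes can be set beside each other. All 9 genes passed the filter on low values (mean over 8 FPKM in a group and over 8 FPKM in at least 4 of its mice), and since no mouse was below 36.2 FPKM for any of them, the filter did not select by diet. Mdh2, the malate dehydrogenase that closes the cycle, was highest, at 221 ± 24.9 FPKM (SD, n = 19), and was above Cs in 19 of 19 mice. Cs, citrate synthase, followed at 156 ± 32.7 FPKM and was above Idh3a in 18 of 19 mice. Idh3a, the catalytic subunit of NAD-dependent isocitrate dehydrogenase, at 109 ± 13.5 FPKM, and Pdha1, the E1 alpha subunit of PDH, at 103 ± 34.9 FPKM, could not be ordered, Idh3a being the higher one in 10 of 19 mice. Ogdh, the E1 subunit of 2-oxoglutarate dehydrogenase, was at 86.3 ± 10.2 FPKM and lay above Suclg1 in 19 of 19 mice. Suclg1 (the alpha subunit of succinyl-CoA ligase, 66.1 ± 6.9 FPKM), Fh1 (fumarase, 65.7 ± 9.9 FPKM) and Idh2 (the NADP-dependent mitochondrial isocitrate dehydrogenase, 64.8 ± 9.0 FPKM) differed by less than their spread. Dlat, the E2 subunit of PDH, was lowest at 52.4 ± 11.2 FPKM, and lay below Idh2 in 15 of 19 mice. The range over the 19 mice was widest for Pdha1, whose highest value was 2.93 times its lowest, and narrowest for Mdh2 and Suclg1, at 1.45 times each. Low values in the table step by whole reads, from which about 2007 to 4329 reads were estimated behind the Cs value of a mouse, a counting error of 1.52% to 2.23% for this gene. The steps imply that fewer reads were counted than were sequenced, and no counting error was computed for lower genes.

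**Figure D1:**
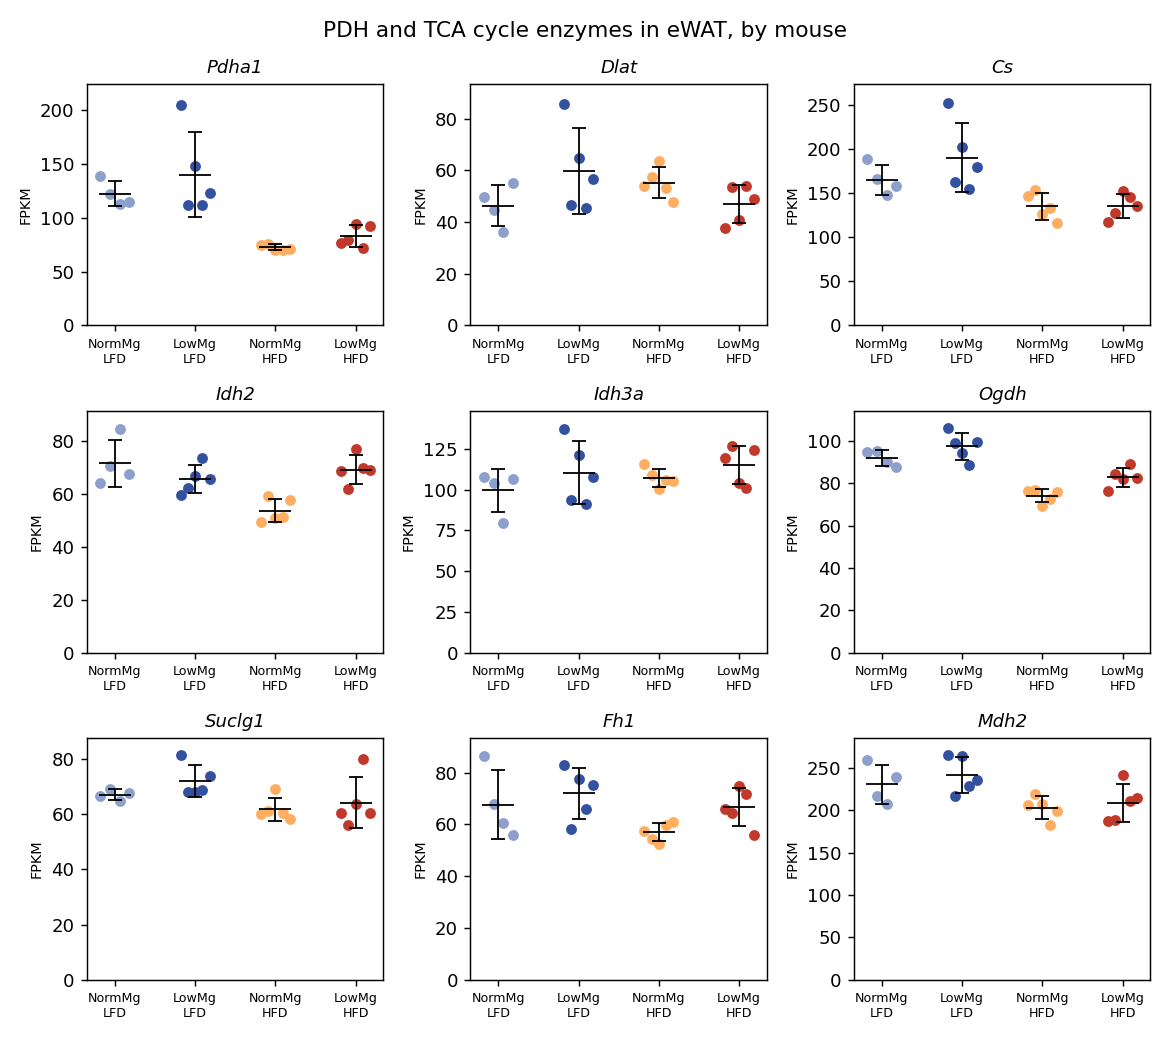
FPKM of the 9 enzymes in each of 19 mice (points) with the group mean and SD (bars), for NormMg-LFD (n = 4) and LowMg-LFD, NormMg-HFD and LowMg-HFD (n = 5 each). All 9 LFD mice lie above all 10 HFD mice for Pdha1, and the 5 LowMg-HFD mice lie above the 5 NormMg-HFD mice for Idh2.

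Pdha1 showed the largest differences between fat levels. Its level in the NormMg-LFD mice was 138, 122, 113 and 115 FPKM and in the NormMg-HFD mice 74.9, 75.8, 69.9, 69.9 and 71.2 FPKM. In the LowMg-LFD mice it was 205, 112, 148, 111 and 123 FPKM and in the LowMg-HFD mice 76.8, 79.2, 94.0, 72.2 and 92.6 FPKM. The LFD and HFD mice did not overlap at either Mg2+ level. In the fit of all 8336 tested genes with limma, Pdha1 was lower on the NormMg-HFD than on the NormMg-LFD by a log2 difference of -0.74 ± 0.14 (SE), or 0.598-fold, with an adjusted p of 0.000354. On the low Mg2+ diets its log2 difference (LowMg-HFD minus LowMg-LFD) was -0.71 ± 0.13, or 0.609-fold (limma, adjusted p = 0.00192). Over 15 mice the values were -0.79 (adjusted p = 0.00283) and -0.74 (adjusted p = 0.00454). The counting of reads is not stated to use strand, and 1143 bases at the 3' end of Pdha1 (GRCm38 chrX:160122209-160138413, minus strand) overlap the opposite-strand gene Map3k15, so that reads of this stretch may be of either gene; the mean level of Map3k15 was 12.6 FPKM.

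Cs (chr10:128337734-128362479, plus strand), which commits acetyl-CoA to the cycle, was lower on the high fat diet where Mg2+ was low. Its level was 252, 162, 203, 155 and 180 FPKM in the LowMg-LFD mice and 117, 127, 152, 146 and 136 FPKM in the LowMg-HFD mice, without overlap. The log2 difference was -0.47 ± 0.12, or 0.721-fold (limma, adjusted p = 0.0119), and over 15 mice -0.57 (adjusted p = 0.00982). With normal Mg2+, the levels were 189, 167, 148 and 158 FPKM in the NormMg-LFD mice and 147, 153, 126, 133 and 116 FPKM in the NormMg-HFD mice, and 1 HFD mouse lay within the LFD range. That log2 difference was -0.29 ± 0.13 and did not pass (limma, adjusted p = 0.0817). The difference between the 2 fat effects, -0.18 on the log2 scale with a 95% confidence interval (CI) of -0.55 to 0.18, was not called either (limma, adjusted p = 0.604).

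Ogdh (chr11:6291633-6356642, plus strand) was lower on the high fat diet at both Mg2+ levels, by less than Pdha1 and with little spread. The NormMg-LFD mice were at 94.8, 95.2, 90.0 and 87.5 FPKM and the NormMg-HFD mice at 76.3, 77.0, 69.4, 72.4 and 75.8 FPKM. The LowMg-LFD mice were at 106, 98.8, 94.1, 88.5 and 99.6 FPKM and the LowMg-HFD mice at 76.3, 84.3, 82.0, 88.9 and 82.5 FPKM. The first pair of groups did not overlap, and in the second LowMg-HFD replicate 4 reached just above the lowest LFD mouse. The log2 differences were -0.30 ± 0.069 (limma, adjusted p = 0.00176) and -0.23 ± 0.065 (adjusted p = 0.0209), with -0.29 (adjusted p = 0.0136) and -0.29 (adjusted p = 0.0113) over 15 mice. The second call was lost without LowMg-LFD replicate 1 (-0.20, adjusted p = 0.061) or without LowMg-HFD replicate 1 (-0.20, adjusted p = 0.0664), and when only the 2 groups compared were fitted (adjusted p = 0.0862).

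Idh2 (chr7:80094846-80115392, minus strand), which makes NADPH in mitochondria, was the member that differed between Mg2+ levels. Its level was 49.6, 59.2, 51.0, 51.4 and 57.9 FPKM in the NormMg-HFD mice and 68.7, 62.0, 77.1, 69.9 and 69.0 FPKM in the LowMg-HFD mice. All 5 LowMg-HFD mice were above all 5 NormMg-HFD mice, with a log2 difference of 0.36 ± 0.086, or 1.28-fold (limma, adjusted p = 0.00748), and 0.36 (adjusted p = 0.011) over 15 mice. In the NormMg-LFD mice Idh2 was at 64.4, 70.5, 84.7 and 67.7 FPKM, above all NormMg-HFD mice. That fat effect was -0.41 ± 0.091 on the log2 scale, or 0.755-fold (limma, adjusted p = 0.00174), and -0.29 (adjusted p = 0.0368) over 15 mice, where the highest NormMg-LFD mouse is one of those left out. In the LowMg-LFD mice Idh2 was at 59.9, 62.4, 67.0, 73.7 and 65.8 FPKM, and the log2 difference between fat levels at low Mg2+ was 0.075, with a 95% CI of -0.11 to 0.26 (limma, adjusted p = 0.603). Low Mg2+ on the low fat diet gave a log2 difference of -0.12, with a 95% CI of -0.31 to 0.071 (adjusted p = 0.845). The difference between the 2 Mg2+ effects was 0.48 ± 0.13 on the log2 scale and narrowly missed the threshold (limma, adjusted p = 0.0551). It passed in 5 of 28 alternatives, whose adjusted p ranged from 0.0299 to 0.156, among them median centring (0.0401) and quantile normalization (0.0318). A gene model on the same strand, Gm45203, shares 1831 bases with Idh2, and reads were not separated between them here.

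**Figure D2:**
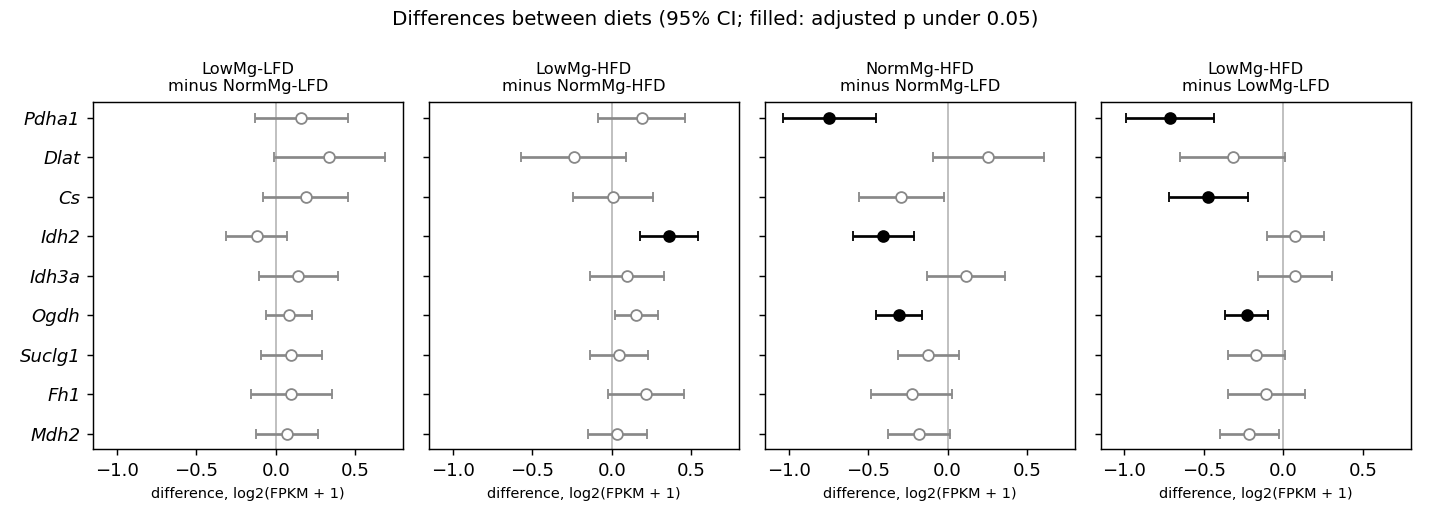
Difference in log2(FPKM + 1) for each enzyme (points) with its 95% confidence interval (bars) in 4 comparisons from the limma fit; filled points have an adjusted p under 0.05. Filled points are Idh2 for Mg2+ on the high fat diet, Pdha1, Idh2 and Ogdh for fat at normal Mg2+, and Pdha1, Cs and Ogdh for fat at low Mg2+.

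By counts, 3 of 9 enzymes were called lower and 0 higher on the NormMg-HFD against the NormMg-LFD, where 12.8% of the tested genes were called lower and 24.6% higher. The median log2 difference was -0.22 over the enzymes and 0.073 over all tested genes. On the LowMg-HFD against the LowMg-LFD, 3 of 9 were called lower and 0 higher, beside 3.51% and 12.4% of the tested genes, with medians of -0.21 and 0.097. On the LowMg-HFD against the NormMg-HFD, 1 of 9 was called higher and 0 lower, beside 5.58% and 12.9% of the tested genes, with medians of 0.097 and -0.043. The enzyme median for fat at normal Mg2+ was -0.12 without NormMg-LFD replicate 2. With another scaling, the enzyme medians of the 3 comparisons reached -0.37, -0.32 and 0.20, while those of all genes moved to between -0.044 and -0.029, between -0.022 and -0.012, and between 0.015 and 0.021. These comparisons share groups. For Mg2+ on the low fat diet, 0 of 9 enzymes and 0% of the tested genes were called by limma, while 547 tested genes and 0 of the enzymes had an unadjusted p under 0.05. For the interaction 0 of 9 enzymes were called, beside 1.25% of the tested genes (104, or 0 to 482 without 1 mouse). An unadjusted limma p under 0.05 held for 2 of 9 enzymes (Idh2 and Dlat) and 1698 of the 8336 tested genes, a like share. After median centring 1580 genes were called higher and 1572 lower for fat at normal Mg2+ (2048 and 1066 before), 593 and 531 for fat at low Mg2+ (1036 and 293 before), and 649 and 849 for Mg2+ on the high fat diet (465 and 1077 before), while the enzymes called were 4, 3 and 1, in the same directions. After quantile normalization 6 enzymes were called lower for fat at normal Mg2+ (with Cs, Fh1 and Mdh2), 4 lower for fat at low Mg2+ (with Mdh2) and 2 higher for Mg2+ on the high fat diet (with Ogdh, adjusted p = 0.0342). The background rose with them, to 1696 genes lower for fat at normal Mg2+, 530 lower for fat at low Mg2+ and 786 higher for Mg2+ on the high fat diet, of 8336 tested.

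The other 5 members were not called in any comparison. Mdh2 ranged from 182 to 265 FPKM, with log2 differences for fat of -0.18 (95% CI -0.38 to 0.015) at normal and -0.21 (95% CI -0.40 to -0.030) at low Mg2+. Fh1, which overlaps the opposite-strand gene Kmo (1.94 FPKM on average) over 5255 bases, ranged from 52.3 to 86.4 FPKM and had log2 differences of -0.22 (95% CI -0.48 to 0.031) and -0.11 (95% CI -0.35 to 0.13). Suclg1 ranged from 55.9 to 81.3 FPKM, with -0.12 (95% CI -0.31 to 0.072) and -0.17 (95% CI -0.35 to 0.010), the latter being called without LowMg-HFD replicate 4 (-0.25, adjusted p = 0.0241). These 3 had estimates below 0 for fat at both Mg2+ levels, with intervals that reach from no difference, or close to it, to differences of the size seen for Ogdh. Idh3a ranged from 79.7 to 137 FPKM, with log2 differences of 0.12 (95% CI -0.13 to 0.36) and 0.073 (95% CI -0.16 to 0.31), estimates that change sign with the scaling. Dlat was at 49.7, 44.7, 36.2 and 55.1 FPKM in the NormMg-LFD mice, at 85.9, 46.5, 65.0, 45.3 and 56.7 FPKM in the LowMg-LFD mice, at 54.1, 57.4, 63.8, 53.2 and 47.8 FPKM in the NormMg-HFD mice and at 37.6, 53.5, 40.7, 53.9 and 49.1 FPKM in the LowMg-HFD mice. Its groups overlapped in every comparison, and its interaction of -0.58 on the log2 scale (95% CI -1.05 to -0.095) did not pass (limma, adjusted p = 0.165).

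Promoter sequence is shown for Pdha1, Cs and Idh2. Pdha1 was called lower on the high fat diet at both Mg2+ levels, and Cs at low Mg2+ alone. Idh2 differed in its pattern. The stretches lie before the RefSeq start site (GRCm38.p6) and hold no exon of the GENCODE annotation; they are chrX:160138431-160138680 (minus strand) for Pdha1, chr10:128337477-128337726 (plus strand) for Cs and chr7:80115393-80115600 (minus strand) for Idh2. Capitals mark the GC box GGGCGG on either strand.

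Pdha1: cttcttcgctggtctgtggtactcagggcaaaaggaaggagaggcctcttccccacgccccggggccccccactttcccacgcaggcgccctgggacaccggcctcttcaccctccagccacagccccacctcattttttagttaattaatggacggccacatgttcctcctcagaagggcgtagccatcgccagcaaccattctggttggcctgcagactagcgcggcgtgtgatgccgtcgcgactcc
Cs: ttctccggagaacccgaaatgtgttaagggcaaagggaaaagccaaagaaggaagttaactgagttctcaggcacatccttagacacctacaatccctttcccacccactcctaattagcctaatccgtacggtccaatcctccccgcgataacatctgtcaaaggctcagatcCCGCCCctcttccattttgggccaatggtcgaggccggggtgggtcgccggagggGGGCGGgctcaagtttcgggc
Idh2: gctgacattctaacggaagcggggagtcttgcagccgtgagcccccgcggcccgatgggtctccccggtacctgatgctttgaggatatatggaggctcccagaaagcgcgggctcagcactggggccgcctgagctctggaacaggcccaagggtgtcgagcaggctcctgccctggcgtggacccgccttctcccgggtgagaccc

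The Cs stretch holds 2 GC boxes and the Pdha1 and Idh2 stretches 0, but the Idh2 stretch was cut to 208 bases where an exon begins, and Idh2 has a GC box in the part cut off. Over the 250 bases before the start, 8 of the 9 members had a RefSeq window, and 6 of these 8 held a GC box, beside 35.4% of all 27025 genes. The estrogen-related receptor element TNAAGGTCA was in 0 of 8 (1.3% of all genes), the ETS core CCGGAAG in 0 of 8 (7.83%) and the TATA box TATAAA in 0 of 8 (14.3%). The NRF1 core CGCATGCG, a palindrome, was in 1 of 8, at alternative starts of Ogdh (1.75% of all genes). Both strands were searched. No other of these motifs lies in the 3 stretches shown, and no 2 of the marked boxes overlap. A match is a run of letters and not a bound site. The G and C content was 61.6% for Pdha1, 55.2% for Cs and 66.3% for Idh2, beside a median of 52.4% over all windows.

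The members fell into those that varied together over the 19 mice and those that did not. Pearson's r between a member and the mean of the other 8 (z-scores of log2(FPKM + 1), n = 19, with diet differences included) was 0.915 for Cs, 0.874 for Pdha1, 0.825 for Mdh2 and 0.81 for Ogdh. It was 0.697 for Fh1 and 0.643 for Suclg1, and lower for Dlat (0.365), Idh3a (0.162) and Idh2 (0.146). LowMg-LFD replicate 1 was the highest of all 19 mice for 7 of 9 members, Idh2 and Fh1 being the exceptions, and in Idh2 it was the lowest of its group. Without this mouse, the log2 difference between fat levels at low Mg2+ was -0.57 for Pdha1 (limma, adjusted p = 0.00266) and -0.36 for Cs (adjusted p = 0.0356). The mean log2(FPKM + 1) of the 9 members was 6.58 ± 0.094 on the NormMg-LFD (SD, n = 4), 6.70 ± 0.18 on the LowMg-LFD, 6.37 ± 0.042 on the NormMg-HFD and 6.47 ± 0.068 on the LowMg-HFD (n = 5 each).

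**Figure D3:**
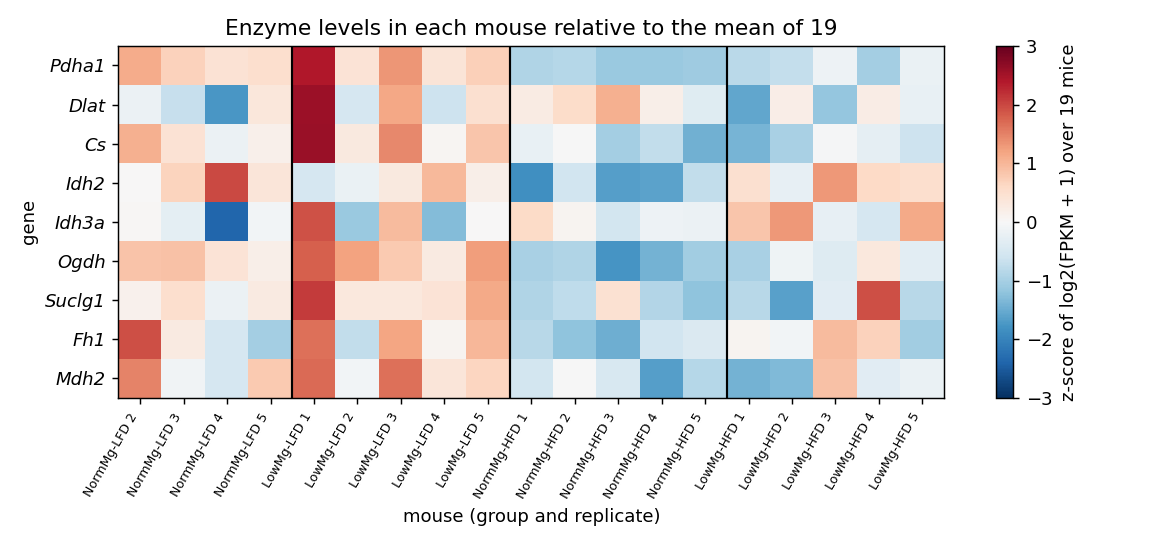
Level of each enzyme (rows) in each of 19 mice (columns, in the order NormMg-LFD, LowMg-LFD, NormMg-HFD and LowMg-HFD, divided by lines) as the z-score of log2(FPKM + 1) over all mice, red above and blue below the mean. LowMg-LFD replicate 1 is highest for 7 of 9 members, and Idh2, with an r of 0.146 to the mean of the others, does not follow the columns.

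Among 8327 tested genes that are not members, the 5 most like the members' mean z-score were Pdhb (r = 0.955), Pcx (0.941), Gm28661 (0.93), mt-Atp8 (0.923) and Map3k15 (0.92), over the same 19 mice. Pdhb encodes the E1 beta subunit that pairs with the product of Pdha1, and Pcx pyruvate carboxylase, which makes oxaloacetate from pyruvate. mt-Atp8, an ATP synthase subunit of the mitochondrial genome, was at 11699 ± 1690 FPKM on the NormMg-LFD, 13878 ± 2217 FPKM on the LowMg-LFD, 7777 ± 1039 FPKM on the NormMg-HFD and 9602 ± 1581 FPKM on the LowMg-HFD (SD). Gm28661 is an unprocessed pseudogene on chromosome 1 at up to 10779 FPKM, a level at which reads of another copy cannot be told apart from its own, and Map3k15 overlaps Pdha1 as described. The gene mt-Atp8 shares 43 bases with mt-Atp6 on the same strand (261 FPKM on average), and reads were not separated between them here. The values of Gm28661, Map3k15 and mt-Atp8 are therefore uncertain.

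The wider pathway was read from 42 genes around the members, of which 35 passed the filter on low values. Pdk3, Pdp1, Pdp2, Me3, Pck2, Lipt1 and Lipt2 did not. Of the 35, 16 were called lower and 4 higher on the NormMg-HFD against the NormMg-LFD, and 14 lower and 0 higher on the LowMg-HFD against the LowMg-LFD. For Mg2+ on the high fat diet 2 were higher and 3 lower, for Mg2+ on the low fat diet 0, and for the interaction 0. The background shares are those given above for the members, and medians over the 35 genes were -0.23, -0.33, 0.048, 0.11 and -0.069 on the log2 scale, in the same order. The 2 fat comparisons use different mice.

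Partner subunits of the members were called in some cases and not in others. Pdhb was at 134, 113, 99.2 and 111 FPKM in the NormMg-LFD mice and at 84.2, 80.6, 72.6, 71.3 and 67.9 FPKM in the NormMg-HFD mice, without overlap. Its log2 differences for fat were -0.59 at normal (limma, adjusted p = 0.0233) and -0.76 at low Mg2+ (adjusted p = 0.00879). The regulatory subunits Idh3b (-0.35 and -0.43) and Idh3g (-0.44 and -0.41) of the complex whose catalytic subunit is Idh3a were both called in both comparisons (log2 differences), and so were the GTP-forming succinyl-CoA ligase subunit Suclg2 (-0.59 and -0.64) and the succinate dehydrogenase subunits Sdha (-0.46 and -0.38) and Sdhb (-0.33 and -0.39). Idh3a itself had estimates above 0 in the same comparisons, though not past the test. Sucla2, the ATP-forming partner of Suclg1, was higher with fat at normal Mg2+ (log2 difference 0.31, adjusted p = 0.025), a difference that fell to 0.20 with quantile normalization. Of 29 alternatives, 24 kept this Sucla2 call, 27 and 28 those of Pdhb at normal and low Mg2+, and 26 that of Idh3b at normal Mg2+. Dlst, the E2 subunit that works with Ogdh, was lower at normal Mg2+ alone (-0.24, adjusted p = 0.0243, called in 24 of 29 alternatives, and -0.19, adjusted p = 0.107, at low Mg2+), and Sdhd at low Mg2+ alone (-0.24, adjusted p = 0.0432, and -0.18, adjusted p = 0.0883, at normal Mg2+), a call that stood in 11 of 29 alternatives. Whether these effects differ between Mg2+ levels is not shown by this. The PDH subunit genes Pdhx (-0.15 and -0.37) and Dld (-0.15 and -0.22) and the succinate dehydrogenase gene Sdhc (-0.13 and -0.14) were called in neither comparison.

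Steps that feed or drain the cycle differed by more. Pcx was at 456, 390, 252 and 376 FPKM in the NormMg-LFD mice and at 212, 228, 171, 198 and 202 FPKM in the NormMg-HFD mice, and its log2 differences for fat were -0.84 (limma, adjusted p = 0.00114) and -0.83 (adjusted p = 0.00312). The mitochondrial pyruvate carrier Mpc1 was lower by -0.61 and -0.66 on the log2 scale. Acly, ATP citrate lyase, was at 762, 118, 587, 113 and 279 FPKM in the LowMg-LFD mice and at 71.4, 87.4, 99.1, 99.1 and 121 FPKM in the LowMg-HFD mice, a log2 difference of -1.55 (adjusted p = 0.0111) in which replicates 1 and 3 of the LowMg-LFD were far above the other 3. Pck1, which in adipocytes serves glycerol synthesis, was at 1046, 869, 205 and 1055 FPKM in the NormMg-LFD mice, at 101, 92.8, 105, 167 and 270 FPKM in the NormMg-HFD mice and at 645, 360, 675, 132 and 609 FPKM in the LowMg-HFD mice. It was lower with fat at normal Mg2+ (-2.30, adjusted p = 0.00163) and higher with low Mg2+ on the high fat diet (1.62, adjusted p = 0.0255), where LowMg-HFD replicate 4 lay inside the NormMg-HFD range and the call stood in 22 of 29 alternatives.

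PDH kinases did not share 1 pattern. Pdk4, the kinase induced by fasting and fatty acids, was at 8.01, 20.3, 7.18 and 13.1 FPKM in the NormMg-LFD mice and at 34.7, 24.9, 48.6, 45.5 and 39.4 FPKM in the NormMg-HFD mice, without overlap. Its log2 difference was 1.67 ± 0.37, or 3.17-fold (limma, adjusted p = 0.00144). The LowMg-HFD mice were at 61.7, 53.7, 15.1, 16.8 and 23.3 FPKM, wider than any other group, and the LowMg-LFD mice at 23.9, 14.9, 19.7, 15.9 and 26.2 FPKM. The Pdk4 log2 difference was 0.53 for fat at low Mg2+ (adjusted p = 0.327) and -0.37 for Mg2+ on the high fat diet (adjusted p = 0.492), neither of them called. Pdk2 went the opposite way: it was at 46.0, 47.4, 47.4 and 49.6 FPKM in the NormMg-LFD mice, at 20.5, 18.8, 22.7, 18.96 and 24.8 FPKM in the NormMg-HFD mice and at 39.2, 32.7, 37.1, 37.9 and 32.5 FPKM in the LowMg-HFD mice, and these 3 groups did not overlap. The LowMg-LFD mice, at 46.0, 59.9, 29.8, 61.1 and 36.9 FPKM, overlapped both the NormMg-LFD and the LowMg-HFD mice, and the log2 difference for fat at low Mg2+ was -0.33 (limma, adjusted p = 0.153). The log2 difference for fat at normal Mg2+ was -1.14 ± 0.16 (limma, adjusted p = 1.7e-05), and that for Mg2+ on the high fat diet 0.74 ± 0.15, or 1.67-fold (adjusted p = 0.00356). The Pdk2 interaction of 0.82 on the log2 scale did not pass (adjusted p = 0.0553). Pdk1 was lower with fat at both Mg2+ levels (-0.57 and -0.70 on the log2 scale, adjusted p = 0.0317 and 0.0171), calls that stood in 21 and 26 of 29 alternatives.

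**Figure D4:**
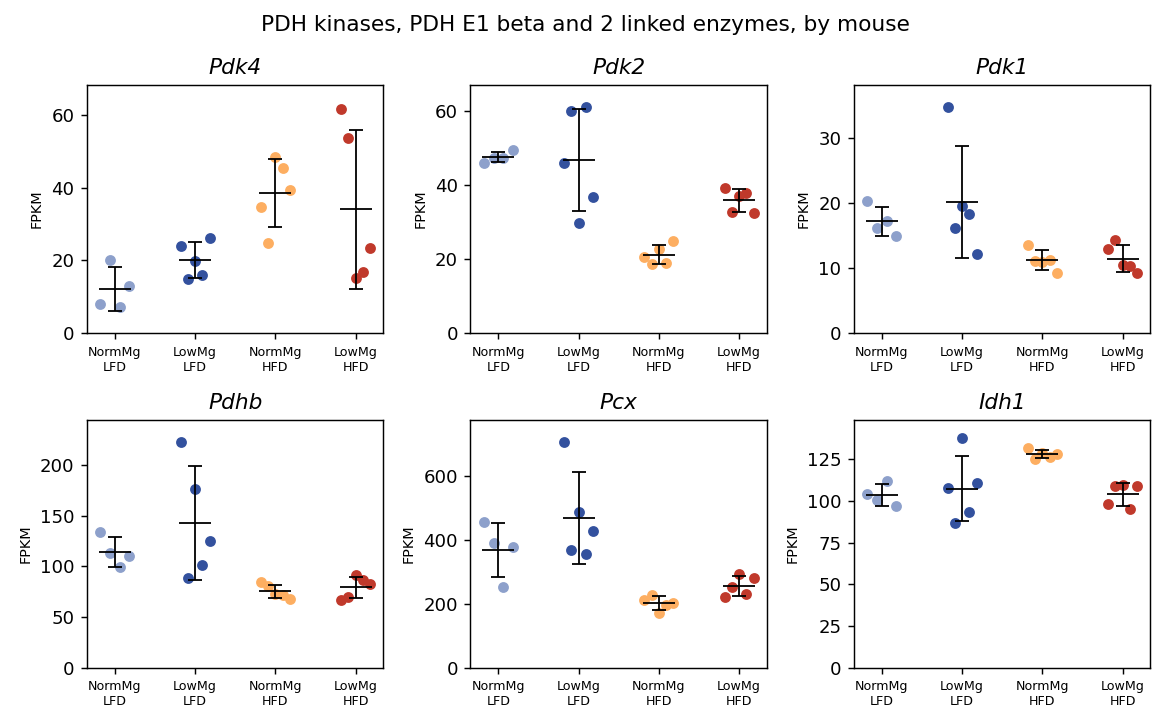
FPKM of 3 PDH kinases (Pdk4, Pdk2 and Pdk1), the PDH subunit gene Pdhb, Pcx and Idh1 in each mouse (points) with the group mean and SD (bars). Pdk2 and Idh1 of the 5 NormMg-HFD mice lie apart from those of the LowMg-HFD mice, Pdk2 below them and Idh1 above them.

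The cytosolic counterparts differed from the mitochondrial enzymes. Idh1, the cytosolic NADP-dependent enzyme, was at 132, 125, 129, 127 and 128 FPKM in the NormMg-HFD mice and at 98.1, 109, 109, 95.2 and 109 FPKM in the LowMg-HFD mice, which is opposite in order to Idh2. It was lower with low Mg2+ on the high fat diet (log2 difference -0.30, adjusted p = 0.0352, limma) and higher with fat at normal Mg2+ (0.31, adjusted p = 0.0217), the former call standing in 16 of 29 alternatives and the latter in 25. The latter estimate fell to 0.13 with quantile normalization (adjusted p = 0.374). The cytosolic aspartate transaminase Got1, a low gene at 2.44 to 12.5 FPKM, was likewise lower with low Mg2+ on the high fat diet (-0.78, adjusted p = 0.0143) and higher with fat at normal Mg2+ (0.89, adjusted p = 0.0036). The carrier Slc25a11 passed only narrowly (-0.23, adjusted p = 0.0452) and was called in 8 of 29 alternatives.

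Ratios within a mouse remove scaling between libraries, and 4 of them were compared between groups by an exact permutation test (two-sided), with p values adjusted over the 16 tests made. The log2 ratio of Pdk4 to Pdha1 was -3.33 ± 0.66 on the NormMg-LFD and -0.92 ± 0.42 on the NormMg-HFD (SD), a difference of 2.41, and the groups did not overlap. The exact p of 0.0159 is the smallest that 4 against 5 mice allow, and its adjusted value was 0.0635. At low Mg2+ this ratio differed by 1.25 between fat levels, with overlap between the groups (exact p = 0.0159, adjusted p = 0.0635). The log2 ratio of Pdha1 to Pdhb lay between -0.25 and 0.34 in all mice. Its largest difference, for fat at normal Mg2+, was -0.15 (exact p = 0.0476, adjusted p = 0.145).

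The log2 ratio of Idh2 to Idh3a was -0.46 ± 0.37 on the NormMg-LFD, -0.72 ± 0.32 on the LowMg-LFD, -0.98 ± 0.14 on the NormMg-HFD and -0.72 ± 0.24 on the LowMg-HFD. For fat at normal Mg2+ it differed by -0.52 (exact p = 0.0159, adjusted p = 0.0635), or by -0.34 without NormMg-LFD replicate 4, and for Mg2+ on the high fat diet by 0.26 (exact p = 0.0635, adjusted p = 0.145). The log2 ratio of Acly to Cs, 0.29 ± 0.16 on the NormMg-LFD and -0.33 ± 0.063 on the NormMg-HFD, differed by -0.62 without overlap (exact p = 0.0159, adjusted p = 0.0635). None of the 16 tests passed after adjustment, and 4 had the adjusted value of 0.0635.

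**Figure D5:**
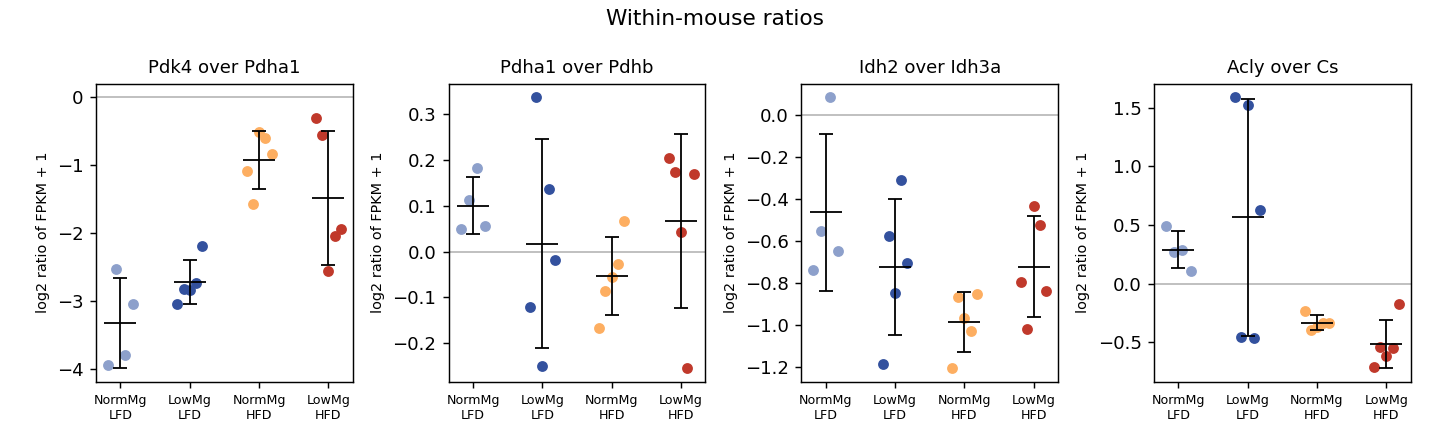
Log2 ratio of FPKM + 1 of 2 genes within each mouse (points) with the group mean and SD (bars), for Pdk4 over Pdha1, Pdha1 over Pdhb, Idh2 over Idh3a and Acly over Cs. In the NormMg-HFD mice Pdk4 over Pdha1 lies between -1.57 and -0.51, above the NormMg-LFD mice at -3.95 to -2.54.

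Macrophage and adipocyte markers differed between some of the same groups. The mean log2(FPKM + 1) of 8 macrophage genes was 5.07 ± 0.15 on the NormMg-LFD (SD, range 4.92 to 5.27), 5.12 ± 0.40 on the LowMg-LFD (4.54 to 5.61), 7.20 ± 0.30 on the NormMg-HFD (6.82 to 7.59) and 5.99 ± 0.56 on the LowMg-HFD (5.30 to 6.65). That of 8 adipocyte genes was 9.99 ± 0.20, 10.1 ± 0.065, 9.57 ± 0.20 and 10.1 ± 0.14 in the same order. The NormMg-HFD, where Pdha1, Idh2, Ogdh and Pdk2 were low, was thus the group with the highest macrophage and the lowest adipocyte mean. The adipocyte gene Lep, however, had its highest value in NormMg-HFD replicate 5 (1285 FPKM), whereas the other adipocyte genes had theirs in other groups. On the LowMg-HFD the adipocyte level of the 5 mice was 9.89 to 10.2, beside 9.70 to 10.2 over the low fat mice, whereas Pdha1 was below the low fat mice in all 5. Genes of mitochondrial content and biogenesis (8 genes, among them Vdac1, Tomm20 and Tfam) were at 4.59 ± 0.083, 4.55 ± 0.064, 4.63 ± 0.028 and 4.54 ± 0.061, and endothelial genes (4) at 5.48 ± 0.14, 5.42 ± 0.069, 5.37 ± 0.20 and 5.63 ± 0.10. Brown or beige adipocyte genes (6) ranged from 1.68 to 2.61, with LowMg-LFD replicate 1, the mouse highest for 7 of 9 enzymes, at 2.61 and no other mouse above 2.29. That mouse also had the highest Cidea (14.7 FPKM) and Cox8b (44.4 FPKM). Over all mice, skeletal muscle genes (6) ranged from 0.62 to 1.68 and T cell genes (3) from 0.41 to 2.57. Outside the library named above, the mean over 10 exocrine pancreas genes was at most 0.87, and 4 epididymis genes reached 2.65 in LowMg-LFD replicate 4, with at most 0.34 in any other mouse. The part of the cell makeup in the enzyme differences was not tested.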

How the data were processed

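RNA of eWAT from 19 mice was sequenced by the authors in single-end reads of 50 bases, mapped to the mouse transcriptome (GRCm38/mm10; HISAT and Bowtie2 per the submitters' processing notes) and quantified with RSEM 1.2.31. The authors deposited FPKM per gene (fragments relative to transcript length and library size), with the read count and percent mapped of each library. Depth was even, and since the FPKM are not counts, no count test was run. Of 24238 genes, 1 with a cell that is not a number was left out. From there, log2(FPKM + 1) was fitted in limma 3.58.1 (R 4.3.3) over the 4 groups with an intensity trend, for the 8336 genes that passed the filter. Tests are two-sided, moderated across genes and adjusted by the Benjamini-Hochberg method with a threshold of 0.05. Within-mouse ratios used exact permutation tests (SciPy 1.17.1). The fit was checked on simulated data. The members, the pathway genes and the marker lists were chosen with earlier results of these data known. Named were all members, pathway genes called in a comparison, 4 ratios and the 5 genes most like the members' mean. Some genes that this rule names are left out of the text. Promoters are RefSeq's (GRCm38.p6), and gene positions are from GENCODE. The limma counts, the enzyme medians, each member, and each pathway gene in a comparison that called it were recomputed under alternative settings. These were 0.1 in place of 1 added to FPKM, the filter at FPKM 1 or left off, and centring on medians. Others were quantile normalization, no trend, only the groups compared (not for the interaction), a replicate block and 18 mice with log2 values over 3. Each mouse was also left out in turn, and 15 mice were fitted (chosen after seeing the data). The ratios were recomputed only with 0.1 added and with each mouse left out. Uncalled pathway genes, levels, correlations and marker means were not recomputed.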

Additional observations from a re-analysis of the deposited data

Results flagged for a closer look

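Of 36 groups of 4 or 5 mice tested for a single mouse far from the rest (9 enzymes in 4 groups), 2 held one, where chance gives about 1 in 20. The lowest NormMg-LFD mouse for Idh3a was replicate 4, at 79.7 FPKM against 104 to 108 FPKM in the other 3. The highest NormMg-HFD mouse for Suclg1 was replicate 3, at 68.9 FPKM against 58.3 to 60.9 FPKM in the other 4. NormMg-LFD replicate 4 is also one of the mice with Krt8, and neither gene was called in any comparison of all 19 mice.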

How the results depend on the processing

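The calls of Pdha1 and Cs for fat at low Mg2+, of Pdha1, Idh2 and Ogdh for fat at normal Mg2+ and of Idh2 for Mg2+ on the high fat diet stood in all 29 alternatives, and that of Ogdh for fat at low Mg2+ in 26 of 29. Groups held 4 or 5 mice, the counting error was estimated for Cs alone, and the cause of the changes below was not tested.

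For Mg2+ on the high fat diet, the enzymes called went from 1 to 2 with quantile normalization, and the pathway genes called from 5 to 2 without a filter and to 3 with median centring. Leaving out 1 mouse gave 2 to 6 pathway genes (2 without NormMg-HFD replicate 1 or 3 or LowMg-HFD replicate 3 or 5, and 3 without NormMg-HFD replicate 4 or LowMg-HFD replicate 1) and 921 to 1644 of all genes, where the full data gave 1542 (921 without NormMg-HFD replicate 3). For Mg2+ on the low fat diet, 1 gene of all was called without a filter. For fat at normal Mg2+, the enzymes called went from 3 to 6 with quantile normalization. For fat at low Mg2+, fitting only the groups compared gave 8 pathway genes and 725 genes in all, in place of 14 and 1329, and leaving out 1 mouse gave 800 to 1468 genes (800 without LowMg-HFD replicate 2, 834 without LowMg-LFD replicate 1 and 866 without LowMg-HFD replicate 1).

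The interaction was the least stable. The 104 genes became 24 with a pseudocount of 0.1, 48 with a filter of FPKM 1, 2 without a filter, 245 with median centring, 347 with quantile normalization, 67 without the trend, 35 over 18 mice with the filter at log2 over 3 (8808 genes tested), 0 over 15 mice and 0 to 482 without 1 mouse (0 without NormMg-LFD replicate 2 or 3, LowMg-LFD replicate 5, NormMg-HFD replicate 1, 3 or 4, or LowMg-HFD replicate 3 or 5, and 482 without LowMg-HFD replicate 2). Idh2 was the 1 enzyme called under median centring and under quantile normalization, and leaving out 1 mouse gave 0 to 1 enzymes (1 without NormMg-HFD replicate 5 or LowMg-HFD replicate 1 or 2) and 0 to 1 pathway genes, with 1 under quantile normalization.

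With replicate number as a block, the enzymes called stayed at 1, 0, 3, 3 and 0 for Mg2+ on the high fat diet, Mg2+ on the low fat diet, fat at normal Mg2+, fat at low Mg2+ and the interaction, while the interaction genes fell from 104 to 0. The numbers do not pair the mice, as 5 of 27 same-numbered pairs had deviations correlated over 0.1 (r from -0.18 to 0.34).

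Estimates near 0, none of them called, changed sign. For Mg2+ on the high fat diet, Cs became -0.021 and Suclg1 -0.035 on the log2 scale over 18 mice (with that filter) and over 15 mice, and without 1 mouse Cs ranged from -0.046 to 0.057, Suclg1 from -0.035 to 0.092 and Mdh2 from -0.018 to 0.074. For Mg2+ on the low fat diet Mdh2 became -0.026 over 15 mice. For fat at normal Mg2+ Idh3a became -0.031 with quantile normalization and -0.0023 over 15 mice. For fat at low Mg2+, Idh2 became -0.034 and Idh3a -0.037 with median centring, and Idh3a -0.0011 with quantile normalization. For the interaction, Idh3a, Suclg1 and Mdh2 became 0.030, 0.0029 and 0.057 with quantile normalization, Idh3a 0.0029 over 18 mice, and Idh3a and Mdh2 0.058 and 0.056 over 15 mice. The median over the enzymes became 0.057, 0.0029 and 0.055 in these settings. Without 1 mouse, it ranged from -0.070 to 0.059, Pdha1 from -0.044 to 0.17, Idh3a from -0.11 to 0.059, Fh1 from -0.0038 to 0.20 and Mdh2 from -0.091 to 0.015. For fat at low Mg2+, the difference in the ratio of Pdha1 to Pdhb ranged from -0.017 to 0.13 and that of Idh2 to Idh3a from -0.11 to 0.11.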
